A study of Homo sapiens with 6 samples.

Results

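The clusters of zinc finger genes on human chromosome 19 were examined in ATAC-seq peak lists of 6 human lines established from T-ALL, the acute leukaemia of T-cell precursors. ATAC-seq marks accessible DNA, because the Tn5 transposase cuts and tags DNA that is not tightly packed. The intervals of the 6 lists were merged where they overlapped, and a merged region was taken when its midpoint lay in 1 of 6 windows of chromosome 19 (build hg19). The windows were 11.6 to 13.0 Mb (window 1), 19.8 to 24.6 Mb (window 2), 36.7 to 38.4 Mb (window 3), 44.3 to 45.0 Mb (window 4), 52.3 to 54.0 Mb (window 5) and 56.5 to 59.1 Mb (window 6). They held 270 of the 1204 merged regions of chromosome 19 and of the 40110 of the whole series. The other 934 regions of chromosome 19 served for comparison. They were set apart by position alone, so some of them may also lie among zinc finger genes.

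The lines were TALL-1, MOLT-4, HBP-ALL, DND-41, KOPT-K1 and CCRF-CEM, each grown in RPMI medium with serum and represented by 1 library. The labels give no treatment, control, clone or passage. With 1 library for a line there is no replicate error, so the values describe these libraries, and a line cannot be told apart from its preparation. Binomial intervals (exact, Clopper-Pearson, 95%) cover counting error over regions only, and neighbouring regions are not independent. The windows were given by position, and no hg19 annotation was used here. Regions are therefore not assigned to genes, the windows may hold genes of other families, and the lines' T-cell markers were not looked up.

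C2H2 zinc finger proteins bind DNA through repeated finger domains. Many of those encoded on chromosome 19 carry a KRAB domain, which recruits the co-repressor TRIM28 and, through it, enzymes that deposit the repressive mark H3K9me3. They are known above all for silencing transposable elements. The genes arose by repeated tandem duplication, so that neighbours resemble each other, and the clusters themselves are known to carry H3K9me3 and HP1 over the exons that encode the fingers while many promoters stay accessible. In the RefSeq gene table (GRCh38.p14, used for names and neighbours only), 268 of the 611 protein-coding genes with a zinc finger symbol (ZNF, ZFP, ZSCAN, ZIM, ZIK, ZKSCAN or ZBTB and a number) lie on chromosome 19. They make up 18.5% of the chromosome's 1451 protein-coding genes. Uninterrupted rows of at least 5 such genes numbered 18 and held 213 of them. These rows were not matched to the windows, and some may lie in the rest of chromosome 19. The longest row had 27 genes, from ZNF737 to ZNF681, and others ran from ZNF627 to ZNF791 (24 genes) and from ZNF772 to ZNF256 (23 genes).

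The 6 windows together span 12.9 Mb and held 20.9 regions per Mb. Window 2, the longest, was the sparsest at 9.38 regions per Mb, with 45 regions and a median spacing of 65.1 kb between midpoints. Window 1 was the densest at 35.0 regions per Mb (49 regions), followed by window 6 at 31.5 (82 regions) and window 5 at 25.9 (44 regions). Windows 3 and 4 held 35 and 15 regions. The widest stretch without any region inside a window lay in window 2, from 22235530 to 22816925. Regions in the windows were 192 to 1523 bp wide, with a median of 618 bp, against 566 bp in the rest of chromosome 19 and 469 bp on other chromosomes.

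CCRF-CEM had a peak at 106 of the 270 regions, or 39.3% (interval 33.4% to 45.4%). Every other line had one at well over that share. KOPT-K1 had peaks at 187 regions (69.3%), DND-41 and MOLT-4 at 203 each (75.2%), TALL-1 at 226 (83.7%) and HBP-ALL at 232 (85.9%). None of these 5 intervals overlapped that of CCRF-CEM. Over all 40110 regions the order was different, since CCRF-CEM had a peak at 55.4% of them, the highest share. The other lines stood there at 54.5% (HBP-ALL), 47.3% (MOLT-4), 44.8% (KOPT-K1), 44.3% (DND-41) and 40.7% (TALL-1). In the windows CCRF-CEM was thus last among 6 lines and over the whole genome first.

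CCRF-CEM was last in the rest of chromosome 19 too, where the other lines had a peak at 58.2% to 75.5% of regions. It had one at 454 of those 934 regions, 48.6%, which is 9.35 percentage points above its share in the windows. When each list was cut to the length of the shortest, keeping its strongest peaks, its share fell to 24.9% in the windows and 36.1% in the rest. The windows had the higher share in 4 lines, by 12.1 points in TALL-1, 12.0 in DND-41, 11.0 in KOPT-K1 and 10.4 in HBP-ALL. MOLT-4 had the same share in both, 75.2%. A share over merged regions depends on what the other lists hold, because a region exists only where at least 1 line has a peak.

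**Figure D1:**
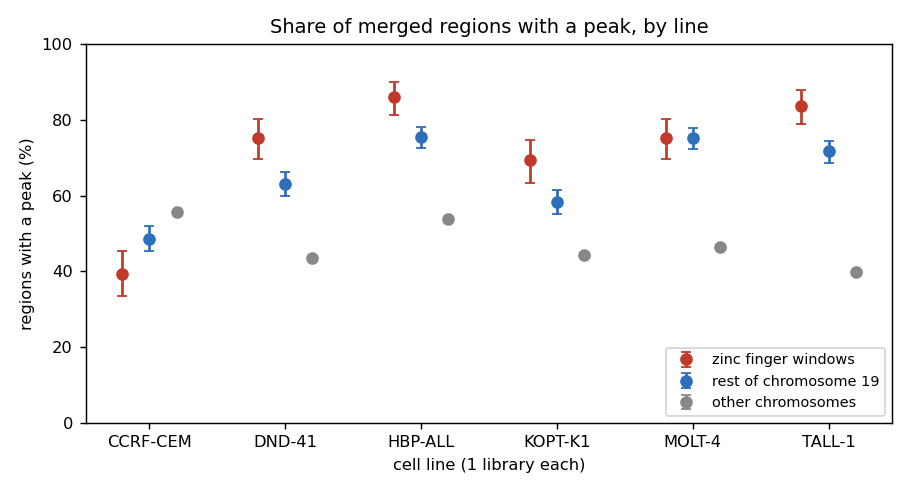
Share of merged regions with a peak (y axis, percent) in each line (x axis) for the zinc finger windows, the rest of chromosome 19 and the other chromosomes, with exact 95% binomial intervals as bars. CCRF-CEM is the line whose share in the windows, 39.3%, lies below both its share in the rest of chromosome 19 and its share elsewhere.

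The most frequent pattern in the windows was a peak in every line, at 94 regions (34.8%). Its share was 38.9% in the rest of chromosome 19 and 22.6% over all regions, where it was also the most frequent. In the windows a peak in every line but CCRF-CEM came next, at 55 regions or 20.4%. That pattern made up 7.82% in the rest of chromosome 19 and 2.42% over all regions. No other pattern in the windows passed 13 regions, the number seen for HBP-ALL alone and for TALL-1 alone. Of the 106 CCRF-CEM regions, 88.7% held a peak in every line, and 1 (0.943%) was found in CCRF-CEM only. Over all regions 28.9% of the CCRF-CEM regions were found in that line only. The rest of chromosome 19 was similar, with 3.30% of the CCRF-CEM regions in that line only and 79.96% in every line. CCRF-CEM peaks were thus mostly shared ones on both sides of the windows' borders.

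Pairs of lines were compared by the regions with a peak in both, divided by those with a peak in either. In the windows the 10 pairs without CCRF-CEM had values from 0.744 (DND-41 and TALL-1) to 0.806, and the 5 pairs with it from 0.431 (TALL-1) to 0.518 (KOPT-K1). In the rest of chromosome 19 these ranges met, at 0.635 to 0.734 without CCRF-CEM and 0.552 to 0.674 with it. On other chromosomes they lay apart as in the windows, at 0.480 to 0.595 without CCRF-CEM and 0.399 to 0.449 with it. Of the CCRF-CEM regions in the windows 95.3% were also found in DND-41, but only 49.8% of the DND-41 regions were found in CCRF-CEM.

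To count absent calls by the same rule for each line, a region was called recurrent for a line when at least 3 of the other 5 lines had a peak there. CCRF-CEM had no peak at 111 of its 213 recurrent regions in the windows, or 52.1% (45.2% to 59.0%). The share was 31.4% in the rest of chromosome 19 (192 of 612 regions, 27.7% to 35.2%) and 23.6% over all recurrent regions of the series. In that rest the other 5 lines missed 3.92% (MOLT-4) to 18.1% (KOPT-K1), so CCRF-CEM was highest there as well. A high share was also not limited to chromosome 19, of which CCRF-CEM missed 36.7% as a whole, since it missed 302 of 792 recurrent regions on chromosome 17 (38.1%). On the other chromosomes its share was 17.6% (chromosome 3) to 26.2% (chromosome 22). HBP-ALL missed 8 of 194 in the windows (4.12%, against 15.5% over all its recurrent regions), TALL-1 14 of 196 (7.14% against 23.1%) and MOLT-4 21 of 202 (10.4% against 14.2%). DND-41 missed 22 of 198 (11.1% against 16.5%) and KOPT-K1 30 of 209 (14.4% against 16.1%). CCRF-CEM was the line whose share of missed regions in the windows stood above its share over the series, while in the other 5 lines it stood below.

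At the 149 regions of the windows where all 5 other lines had a peak, CCRF-CEM lacked one at 55, or 36.9% (29.2% to 45.2%). In the rest of chromosome 19 it lacked 73 of 436 (16.7%), and over the series 9.69% of such regions. The same count, regions missed by that line alone, was 2 of 96 in the windows for DND-41, KOPT-K1 and TALL-1, 1 of 95 for HBP-ALL and 0 of 94 for MOLT-4, which allows a share of up to 3.19%. The sets of these lines require a CCRF-CEM peak and the set of 149 does not, so the shares are not on a like basis. Regions without a CCRF-CEM peak were weaker in the other lines, as given below. Over the series the corresponding shares were 2.38% (DND-41), 2.97% (KOPT-K1), 6.51% (TALL-1), 3.17% (HBP-ALL) and 2.43% (MOLT-4). Where 4 of the other lines had a peak, CCRF-CEM lacked 32 of 39 regions in the windows (82.1%). It lacked 51 of 95 in the rest of the chromosome (53.7%) and 39.0% over the series. Where 3 had one, it lacked 24 of 25 in the windows (96.0%, 79.6% to 99.9%) and 54.8% over the series. In the rest of the chromosome it then lacked 68 of 81 (84.0%, 74.1% to 91.2%), so those intervals overlapped.

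CCRF-CEM missed more than 40% of the recurrent regions in each of the 6 windows. It missed 24 of 40 in window 1. The share was 45.5% in window 2 (15 of 33), 55.2% in window 3 (16 of 29), 77.8% in window 4 (7 of 9), 61.8% in window 5 (21 of 34) and 41.2% in window 6 (28 of 68). Window 4 has few regions, and its interval reached up to 97.2%. The intervals of window 2 (28.1% to 63.6%) and window 6 (29.4% to 53.8%) included the 31.4% of the rest of chromosome 19. Within window 6 the CCRF-CEM peaks were unevenly placed, at 16 of the 41 regions with the lower coordinates and at 26 of the 41 from 58257891 on, towards the end of the long arm. In window 1 the balance was the opposite, with 10 of 24 regions before 12476179 and 7 of 25 from there on.

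**Figure D2:**
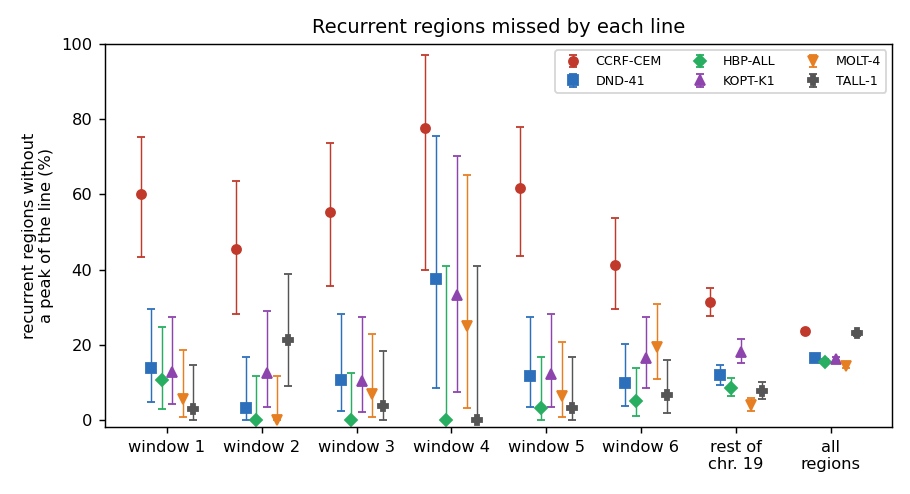
Share of recurrent regions (a peak in at least 3 of the other 5 lines) without a peak of the line (y axis, percent), for the 6 windows, the rest of chromosome 19 and all regions, with exact 95% binomial intervals. CCRF-CEM is the highest point in every window, from 41.2% to 77.8%.

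The other lines also differed by window. TALL-1 missed 7 of 33 recurrent regions in window 2 (21.2%, 8.98% to 38.9%) and 1 of 36, 1 of 28, 0 of 7, 1 of 31 and 4 of 61 in windows 1, 3, 4, 5 and 6. Its share of all regions with a peak was 64.4% in window 2, while it reached 93.9% in window 1 and 94.3% in window 3, the highest of any line in both. MOLT-4 missed 13 of 67 in window 6 (19.4%) which were 13 of its 21 missed regions, and its share of missed regions in the windows, 10.4%, stood above the 3.92% of the rest of chromosome 19. HBP-ALL missed none of 30 recurrent regions in window 2 and none of 28 in window 3, which allows up to 10.0% and 10.7%.

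Missed regions were in part those with weaker peaks in the other lines. Strength was taken as the percentile of a peak's −log10 p within its own list, where 100 is the strongest, and its median over the other lines that had a peak. At regions where all 5 other lines had a peak, this median was 58.4 for the 94 regions in the windows with a CCRF-CEM peak and 46.2 for the 55 without. Pileup, how many tags overlap at a summit as recovered from the deposited values, had medians in the 94 and the 55 regions of 33 and 27 in TALL-1, 30.5 and 22 in MOLT-4, 31 and 25 in HBP-ALL, 23 and 19 in DND-41, and 21.5 and 16 in KOPT-K1. Libraries differ in depth, so a pileup is read against other regions of the same line. In the rest of chromosome 19 the corresponding strengths were 67.7 for 363 regions with and 41.7 for 73 without a CCRF-CEM peak. Regions with and without a CCRF-CEM peak were thus closer in strength in the windows than in the rest.

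Regions of like strength were therefore set side by side, in classes of 20 percentile points chosen after the data had been seen. Between percentiles 60 and 80 CCRF-CEM missed 19 of 57 recurrent regions in the windows, or 33.3% (21.4% to 47.1%). It missed 9 of 169 in the rest of chromosome 19 (5.33%, 2.46% to 9.87%) and 8.10% of 3530 on other chromosomes. Between 40 and 60 the shares were 48.1% of 79, 30.9% of 175 and 25.05% of 3565, and the intervals of the windows and of the rest of the chromosome met at their ends. Between 20 and 40 they were 71.0% of 62 and 68.0% of 128, so that the windows and the rest did not differ beyond counting error, and 43.0% of 3206 on other chromosomes. The lowest and highest classes held 9 and 6 regions in the windows and are not read. In the class from 60 to 80 the other lines missed 0 of 38 (HBP-ALL) to 4 of 58 (KOPT-K1, 6.90%) of their recurrent regions in the windows.

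**Figure D3:**
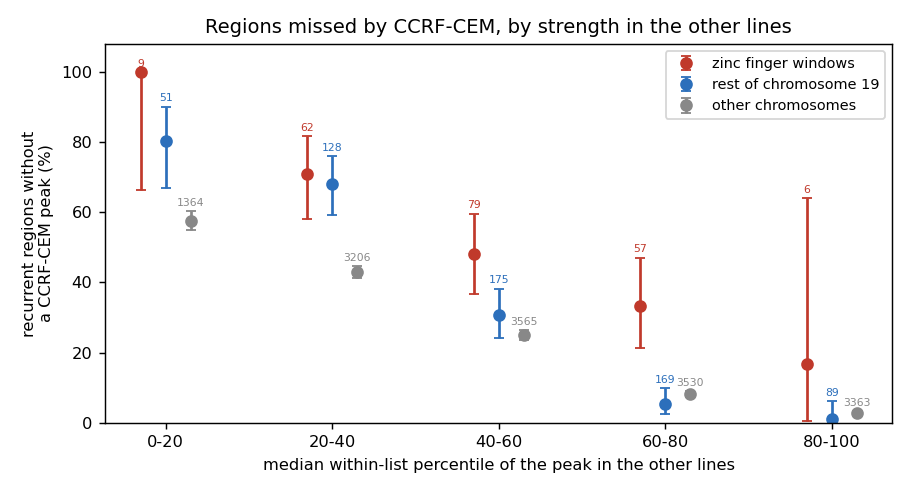
Share of recurrent regions without a CCRF-CEM peak (y axis, percent) against the strength of the peak in the other lines (x axis, median within-list percentile), with exact 95% binomial intervals and the number of regions above each bar. The share falls with strength in all 3 sets, and between percentiles 60 and 80 it is 33.3% in the windows, 5.33% in the rest of chromosome 19 and 8.10% on other chromosomes.

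The library of CCRF-CEM had the lowest relative tag depth, set to 1 here, against 1.35 in MOLT-4, 1.55 in KOPT-K1, 1.70 in DND-41, 1.93 in HBP-ALL and 2.096 in TALL-1. This depth is the lowest recovered background divided by the narrowest interval. The 106 CCRF-CEM peaks in the windows had pileups of 6 to 36 with a median of 13, and 36 of them stood at 10 or less. Its peaks there were narrow, at a median of 391.5 bp where the other 5 lines had medians of 450 to 545 bp. CCRF-CEM peaks were also the narrowest in the rest of chromosome 19 (434 bp against 468 to 532 bp). The same held on other chromosomes (436 bp against 489 to 533 bp). In the windows CCRF-CEM peaks ranked low in its list, at a median percentile of 33.2. In the rest of chromosome 19 its peaks ranked nearly as low, at 35.9, while elsewhere the median was 50.9. The part of depth in the missed regions was not tested.

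Where every line had a peak, CCRF-CEM peaks in the windows were low but no lower than in the rest of the chromosome. Relative pileup is a line's log2 pileup at a region minus the average over the lines there, after which each line's genome-wide median over 9045 such regions was subtracted. Over the 94 regions of the windows the CCRF-CEM median was −0.61 (quartiles −0.89 and −0.37), and 90 of the 94 regions lay below 0. Over 363 regions of the rest of chromosome 19 it was −0.70 (−0.91 and −0.52), and with the values centred on that rest the median in the windows was 0.086, so that the sign depends on the centring. HBP-ALL stood at 0.30, MOLT-4 at 0.33 and TALL-1 at 0.27 in the windows, and DND-41 and KOPT-K1 at −0.15 and −0.13. Centred on the rest of the chromosome, the sign turned in KOPT-K1 (0.16), MOLT-4 (−0.14) and TALL-1 (−0.13) too. A low value in CCRF-CEM raises the others, because each is taken against the mean of all 6. Regions enter here only if CCRF-CEM had a call, which leaves out the missed ones.

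By window the CCRF-CEM median was lowest in window 3, at −0.87 (11 regions), and was −0.78 in window 5 (12 regions), −0.74 in window 1 (15 regions), −0.58 in window 6 (37 regions) and −0.32 in window 2 (17 regions). TALL-1 stood at −0.05 in window 2 and between 0.27 and 0.41 in windows 1, 3, 5 and 6. Window 2, where TALL-1 missed the most recurrent regions, was thus also the window with its lowest median height. Window 4 had only 2 regions of this kind and is not read.

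**Figure D4:**
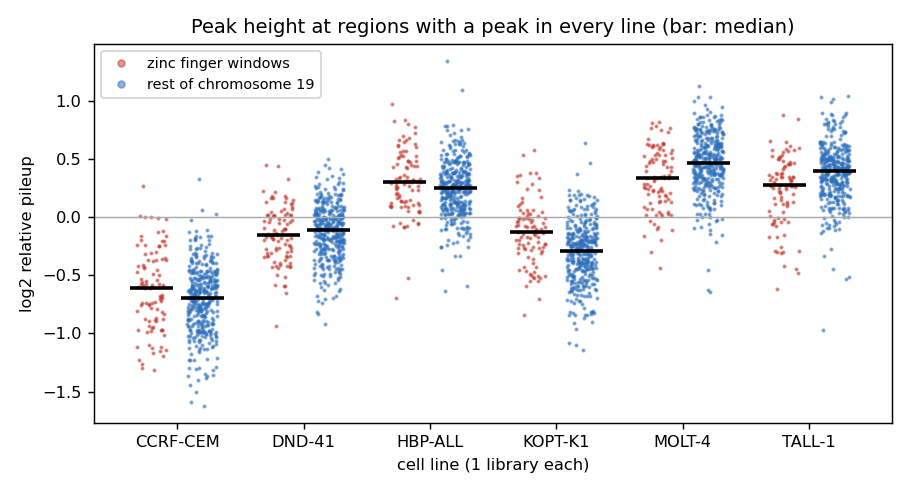
Log2 relative pileup (y axis, minus the average over lines at the region and minus each line's genome-wide median) at regions with a peak in every line, 94 in the zinc finger windows and 363 in the rest of chromosome 19. Points are regions and black bars are medians; the CCRF-CEM medians are −0.61 and −0.70.

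Missed regions of CCRF-CEM came in short runs rather than in 1 block. A run is a stretch of consecutive recurrent regions of 1 window without a CCRF-CEM peak. There were 47 such runs, of which 17 had 3 or more regions and together held 68 of the 111 missed ones. The longest had 6 regions and 4 more had 5. The length depends on the peak threshold, since with peaks of a −log10 p of 10 or more the longest run had 14 regions, and with lists cut to the same length 17. With the windows drawn in by 0.1 Mb the longest run had 5. In the rest of chromosome 19, with 192 missed regions, 13 of 133 runs had 3 or more and the longest had 5. In the windows KOPT-K1 had 1 run of 4, TALL-1 had 1 of 3, and the runs of DND-41, HBP-ALL and MOLT-4 had at most 2 regions. Longer runs also arise where a larger share of regions is missed, and that share differs between these sets. Whether missed regions lie closer together than their share implies was not tested.

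The longest run of window 1 reached from 12886265 to 12992573, with 6 missed regions over 106 kb and pileups of 10 to 56 in the lines that had peaks. It lay at the window's edge, and its last region was the last inside the upper border. A CCRF-CEM peak with no counterpart in another line, at 12900743 to 12901098 (pileup 16), lay inside this stretch, 1037 bp from a missed region. A further run of 5 in this window, one of the runs picked for mention after the values were seen, reached from 12163314 to 12274159. In window 2 the longest run had 5 regions from 19932247 to 20349471, of which 4 held a peak in all 5 other lines. Its first region, at 19932247 to 19932898, had pileups of 40 in TALL-1, 38 in MOLT-4, 42 in HBP-ALL, 34 in DND-41 and 23 in KOPT-K1, and the nearest CCRF-CEM peak lay 44694 bp away. All 5 libraries stood well clear of their lowest called pileups of 7 to 9 there. That nearest peak belongs to the strongest shared region of the window, at 19886997 to 19887656, with a pileup of 26 in CCRF-CEM and 30 to 48 in the others.

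In window 5 the run from 53038686 to 53194280 held 5 regions in a row with a peak in all 5 other lines, spaced over 156 kb with no CCRF-CEM peak among them. The region at 53141189 to 53142067 had pileups of 33 in DND-41, 32 in MOLT-4 and TALL-1, and 26 in HBP-ALL and KOPT-K1, with 95962 bp to the nearest CCRF-CEM peak. A run of 5 followed from 53661846 to 53898724 in the same window. The strongest region shared by every line in window 5, at 52692809 to 52693663, had a pileup of 31 in CCRF-CEM and 44 to 68 elsewhere.

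In window 6 the first run of 4, from 56988485 to 57079073, was missed by KOPT-K1 as well, and MOLT-4 had a peak at 1 of its 4 regions. TALL-1 pileups there were 48, 53, 55 and 16. The stretch thus held peaks mainly in DND-41, HBP-ALL and TALL-1. A later run of 4 ended with the region at 58609255 to 58609980, the strongest in window 6 to lack a peak in CCRF-CEM alone, with pileups of 45 in TALL-1, 38 in MOLT-4 and HBP-ALL, 31 in DND-41 and 18 in KOPT-K1. The strongest shared region of this window, at 58986928 to 58987879, had a pileup of 32 in CCRF-CEM and 52 to 70 in the other lines.

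Window 2 also held a stretch that 2 lines missed together. TALL-1 lacked 3 recurrent regions in a row from 22018564 to 23258453, and CCRF-CEM 4 from 22018564 to 23300293. CCRF-CEM had 1 peak within its stretch, at a region that was not recurrent. Both stretches cross the part from 22235530 to 22816925 that held no region of any line. In window 3 the longest CCRF-CEM run had 4 regions, from 37328829 to 37464733, with pileups of 8 to 44 in the lines with peaks. The strongest region of this window that CCRF-CEM alone lacked, at 37808339 to 37808982, had pileups of 51 in TALL-1, 42 in MOLT-4, 32 in HBP-ALL, 21 in DND-41 and 22 in KOPT-K1. In window 4 the run had 3 regions, from 44576023 to 44617776, and pileups of 11 to 20. Window 1 held 13 regions that CCRF-CEM alone lacked. The strongest by median percentile, at 12845142 to 12845742, had pileups of 55 in TALL-1, 42 in MOLT-4, 35 in HBP-ALL, 18 in DND-41 and 16 in KOPT-K1. The last 2 were weak peaks, at percentiles 6.78 and 15.1 of their lists, and a CCRF-CEM peak lay 2303 bp away.

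**Figure D5:**
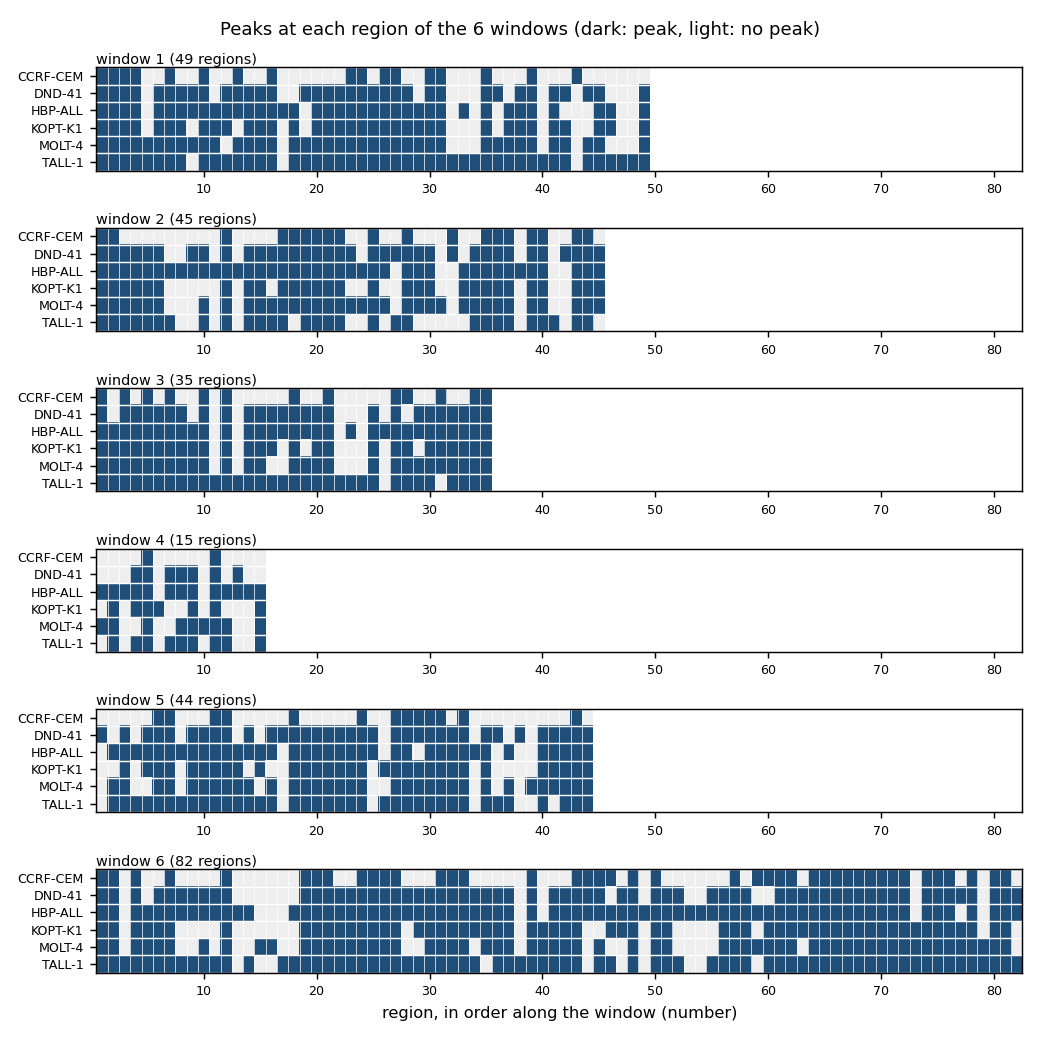
Presence of a peak in each line (rows) at each of the 270 regions (columns, in order along the 6 windows), dark for a peak and light for none. The top row, CCRF-CEM, is filled at 106 regions and is broken by runs of up to 6 recurrent regions, while the HBP-ALL row is filled at 232.

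None of the 55 regions that CCRF-CEM alone lacked was within 1 kb of a CCRF-CEM peak. The distance to the nearest one ran from 2.30 to 262 kb with a median of 43.2 kb. In the rest of chromosome 19 none of the 73 such regions was within 1 kb either. Distances there ran from 1.69 to 92.8 kb with a median of 27.6 kb. Distances were not summarised for the other missed recurrent regions. Peaks of a single line were found at 37 of the 270 regions in the windows (13.7%). The share was 23.02% in the rest of chromosome 19 and 43.2% over all regions. In the windows these peaks numbered 13 each in HBP-ALL and TALL-1, 5 in MOLT-4, 4 in DND-41, and 1 each in KOPT-K1 and CCRF-CEM. The strongest of them was a TALL-1 peak in window 3, at 37742355 to 37742894, with a pileup of 52 and a −log10 p of 41.6, which ranked at percentile 85.9 of its list. The strongest in HBP-ALL lay in window 2, at 20188621 to 20189160 (pileup 26), inside the long CCRF-CEM run. That of DND-41 was at 23982144 to 23982376 (pileup 21). The widest region, at 12098307 to 12099829, held peaks of all lines with pileups of 9 in CCRF-CEM and 14 to 34 in the others.

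The borders of the windows were set by position. Of the 12 regions just inside a border 5 held a CCRF-CEM peak, and of the 11 just outside 8 did. The regions just inside held peaks of 1 to 6 lines (median 5) and those just outside of 1 to 6 (median 6).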

How the data were processed

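ATAC-seq peak lists of 6 cell lines, 1 library each, were analysed. Per the submitters' processing notes, Bowtie2, SAMtools, Picard and MACS2 2.1.1.2016030 and the build hg19 were used, with settings and order not given in the sources used here. Each line of the deposited lists holds, in the narrowPeak layout, an interval, an integer score, a fold enrichment (a ratio) at the summit, the −log10 p and −log10 q and the summit's position, as the authors' peak caller wrote them. No list pools lines.

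Chromosomes 1 to 22 and X were used, and the strongest summit was kept for each interval. Intervals of the 6 lists that shared at least 1 bp were merged. Pileup t and background c were recovered from the deposited fold, taken as (t + 1)/(c + 1), and from the −log10 p, taken as the Poisson probability of a count above t. The match had to lie within 0.001, and pileups from 400 were not tried. In each line 99.9% or more of intervals were recovered. Total depth was not used here, and only relative tag depth is given. Shares have exact 95% binomial intervals, a share of 0 is given the limit that 3 counts allow, and no p-value is given because each line has 1 library. A gap rule (Dixon's, at its 95% critical value) marked lines that stood apart among the 6. Scripts were tested on simulated data. The tools were scipy 1.17.1, pandas 2.3.3, numpy 2.4.6 and matplotlib 3.10.9 under Python 3.11.15.

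The regions, windows and lists were chosen with earlier results of these data known. Regions named are, in each window, the longest CCRF-CEM run (the lower start where tied), the strongest region with a peak in every line but CCRF-CEM and the strongest in every line, then each line's strongest region of its own and the widest region. Alternatives were a stricter p, equal numbers of peaks, other rules for merging, recurrence, windows and centring. Leaving out each other line, runs across window edges and strength classes were added after the data were seen. RefSeq tables of GRCh38.p14 gave names and neighbours only.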

Additional observations from a re-analysis of the deposited data

Results flagged for a closer look

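In 7 of the 18 sets of 6 values examined, CCRF-CEM stood apart by a gap to the nearest other line that was large against the whole range of the 6 lines. Chance alone sets apart about 1 in 20 such sets, but this rate cannot serve as a test here. The windows and lists were chosen with earlier results of these data known, and CCRF-CEM was singled out beforehand. The sets also overlap, since the windows are parts of the whole and the shares with and without a peak mirror each other. Over all windows CCRF-CEM had a peak at 39.3% of regions, against 69.3% to 85.9% in the other lines, and lacked one at 52.1% of recurrent regions, against 4.12% to 14.4%.

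By window, the share of recurrent regions without a CCRF-CEM peak was 60% in window 1 (2.78% to 13.9% in the other lines), 55.2% in window 3 (0% to 10.7%) and 61.8% in window 5 (3.23% to 12.1%). The share of regions with a CCRF-CEM peak was 37.1% in window 3 (74.3% to 94.3%) and 29.5% in window 5 (70.5% to 84.1%). Windows 2, 4 and 6 gave no such value. The cause was not tested.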

How the results depend on the processing

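Of 107 recomputed values for 22 results, 75 kept their direction and moved by less than counting error, or less than 1.5 times for counts, and 32 did not; the cause was not tested. With peaks of a −log10 p of 10 or more, shares with a peak in the windows were 26.9% in CCRF-CEM and 65.1% in DND-41, and in the rest of chromosome 19 41.9% in CCRF-CEM, 79.8% in MOLT-4 and 78.1% in TALL-1. CCRF-CEM then missed 64.2% of recurrent regions in the windows and 41.4% in the rest, its longest run had 14 regions, and the TALL-1 median relative pileup was 0.19. With equal numbers of the strongest peaks, shares in the windows were 24.9% (CCRF-CEM), 79.0% (HBP-ALL) and 87.9% (TALL-1), and in the rest 36.1% (CCRF-CEM), 66.8% (DND-41), 67.4% (HBP-ALL), 78.1% (MOLT-4) and 80.99% (TALL-1). Missed shares were 68.5% and 48.4%, and the longest run had 17 regions. In the rest of chromosome 19 the missed share was 23.4% with recurrence in at least 4 lines, 25.5% without HBP-ALL and 25.4% without MOLT-4 or without TALL-1. By strength, in classes chosen after the data were seen, it was 33.3% in the windows and 5.33% in the rest between percentiles 60 and 80, but 48.1% and 30.9% between 40 and 60, and 71.0% and 68.0% between 20 and 40. Centred on the rest of chromosome 19, median relative pileups were −0.13 (TALL-1), −0.14 (MOLT-4), 0.052 (HBP-ALL), −0.044 (DND-41), 0.16 (KOPT-K1) and 0.086 (CCRF-CEM). Strength classes aside, the windows exceeded the rest in CCRF-CEM's missed share by 20.1 to 23.8 percentage points wherever both were recomputed. No paired analysis was possible because each line has 1 library.

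A region without a peak is one without a call past the authors' threshold, and it is not a measurement of closed DNA. CCRF-CEM had the lowest relative depth but also the longest list, with 22367 intervals, and the lowest called pileup, 6. The part of depth was not tested.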
